A study of Mus musculus with 2 samples.

Results

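N-linked glycosylation and glycosylphosphatidylinositol (GPI) anchoring are 2 routes by which the endoplasmic reticulum (ER) modifies membrane and secreted proteins. In the first, a branched oligosaccharide is built on the lipid dolichol and moved as a whole to asparagine residues by the oligosaccharyltransferase, after which glucosidases trim it and Golgi enzymes add branches and sialic acid. In the second, a glycolipid is assembled sugar by sugar and exchanged for a signal at the carboxyl end of a protein, which then stays on the cell surface as a lipid-anchored molecule. In T cells, receptors such as the T cell receptor are N-glycosylated, and surface molecules such as Thy1 and Ly6a carry a GPI anchor.

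The genes described here are those of the count table whose symbols begin with Alg, Mgat, Dpm or St3gal and a digit, those named Pig plus 1 letter, and Dpagt1, Rpn1, Rpn2, Ddost, Stt3a, Stt3b, Dad1, Mogs and Ganab. They number 61 of 24091 genes in the table. The symbol rule also takes in Pigr, the polymeric immunoglobulin receptor, which is an antibody transporter and no enzyme of either pathway. Pigr had 0 counts in IL-2 expanded cells and 13 counts (0.604 CPM) in freshly isolated cells, at least 4.23-fold lower against a floor of 3 counts in the expanded library, and it is left out of every pathway step below.

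Total RNA of γδ T cells from the mouse spleen was sequenced in 1 library of IL-2 expanded cells and 1 library of freshly isolated cells. The labels describe a flow cytometric sort, then activation by anti-CD3 on the plate and anti-CD28 in solution, with IL-2 (100 U/ml, 5 days). Culture, receptor stimulation and IL-2 therefore cannot be told apart. Those protocols carry the same wording for each sample, and that the freshly isolated cells were not cultured is read from their treatment label alone. Strain, genotype, age, sex and number of mice are not given in the sources used here.

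The total count was 22204099 in the expanded library and 20379385 in the freshly isolated library. Levels are given as CPM, counts per 1000000 of a library size scaled by the TMM method, in which 1 count equals 0.0476 CPM in the expanded and 0.0465 CPM in the freshly isolated library. With a single library on each side, differences between the groups have no replicate check, and no test was made. Brackets after a fold give its exact 95% interval, which covers counting error only. The summed level of 8 T cell markers was 2979 CPM in expanded and 4279 CPM in freshly isolated cells, with none at 0 counts. Of these 8, 3 were at least 2-fold lower in expanded cells (Cd5 29.9-fold, Cd2 5.19-fold and Lck 2.10-fold) and none higher, Cd247 was 1.84-fold lower, and Cd3e was at 688 CPM in expanded and 734 CPM in freshly isolated cells. The constant genes of the γδ receptor were not analysed here. Most markers of other spleen cells were at or near 0 in the expanded library. The summed level of 13 B and plasma cell markers was 9.70 CPM in expanded and 961 CPM in freshly isolated cells, with 7 of the 13 at 0 counts in the expanded library, Cd79a and Ms4a1 among them. That of 19 macrophage and monocyte markers was 90.6 CPM in expanded and 1210.0 CPM in freshly isolated cells, with 11 of the 19 at 0 counts in the expanded library, C1qa and Lyz2 among them. For 6 erythroid markers it was 0.0951 CPM in expanded and 88.1 CPM in freshly isolated cells, with 5 of the 6 at 0 counts in the expanded library. The 15 immediate early and dissociation genes summed to 1266 CPM in expanded and 19606 CPM in freshly isolated cells. Of these, 13 were at least 2-fold lower in expanded cells, Egr1 was 1.30-fold lower and Ier3 was 11.5-fold higher. The cell division genes summed to 3941 CPM in expanded and 342 CPM in freshly isolated cells. In bulk RNA, fewer cells of a type and less RNA per cell cannot be told apart, and the part that any of these differences plays in the values below was not tested.

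Of the 61 genes, 56 averaged 1 CPM or more across the libraries and were compared. The other 5 were Pigr, given above, and the paralogues Mgat4c, Mgat4d, Mgat4e and Mgat5b. These 4 Mgat genes had 0 counts in both libraries, which allows a level of up to 0.143 CPM in expanded and 0.139 CPM in freshly isolated cells. Among the 56, 22 (39.3%) were at least 2-fold higher in expanded cells, against 22.4% of all 11715 genes at that level. Only 4 (7.14%) were at least 2-fold lower, against 25.0% of all genes, and these were St3gal1, St3gal2, St3gal6 and Pigv. The remaining 30 (53.6%) were under 2-fold apart, against 52.6% of all genes. Of the 22 higher genes, Mgat3 and Pigz reached the mean of 1 CPM only through the expanded library. They were at 0.186 and 0.604 CPM in freshly isolated cells. On a log2 scale with a prior count of 2, expanded over freshly isolated, the median fold of the 56 genes was 0.68 and that of all 11715 genes 0.035. Scaling by total count instead of TMM shifts log2 folds by -0.158.

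**Figure D1:**
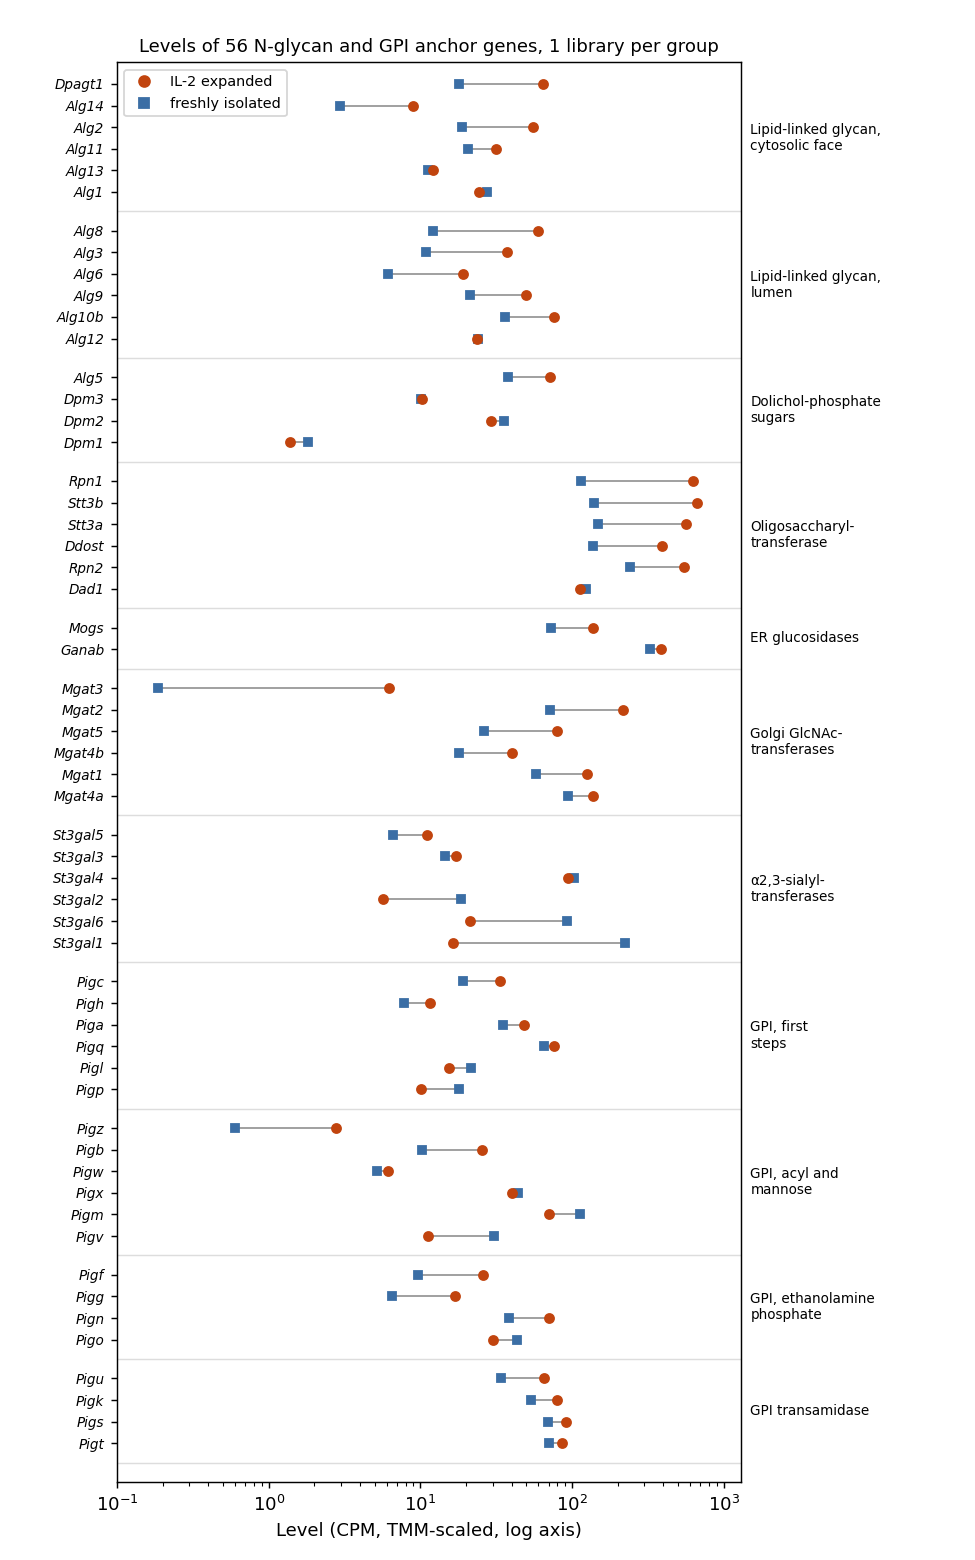
Level of each of the 56 genes in CPM on a log axis, with circles for the IL-2 expanded and squares for the freshly isolated library, 1 library each, grouped by pathway step. The oligosaccharyltransferase genes span 114 to 666 CPM in expanded cells, and the longest lines to a lower circle belong to St3gal1 and St3gal6.

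The steps of the pathway differed in direction and size. The ER steps of N-glycan synthesis held 13 of 24 genes at least 2-fold higher and none lower, against 22.4% and 25.0% of all genes. Of 6 measured Golgi N-acetylglucosaminyltransferase genes, 5 were at least 2-fold higher. Of 15 cell division genes, 14 were also at least 2-fold higher in expanded cells, and their part in these counts was not tested. The sialyltransferases of the St3gal family held 3 of 6 genes lower (against 25.0% of all genes) and none higher. GPI anchor synthesis held 4 of 20 genes higher (against 22.4% of all genes) and 1 lower (against 25.0%). No test sets these steps against each other, since there is no replicate. The same shares of all genes stand beside every count of a step or list below. In a step of few genes, a single gene moves the share widely.

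**Figure D2:**
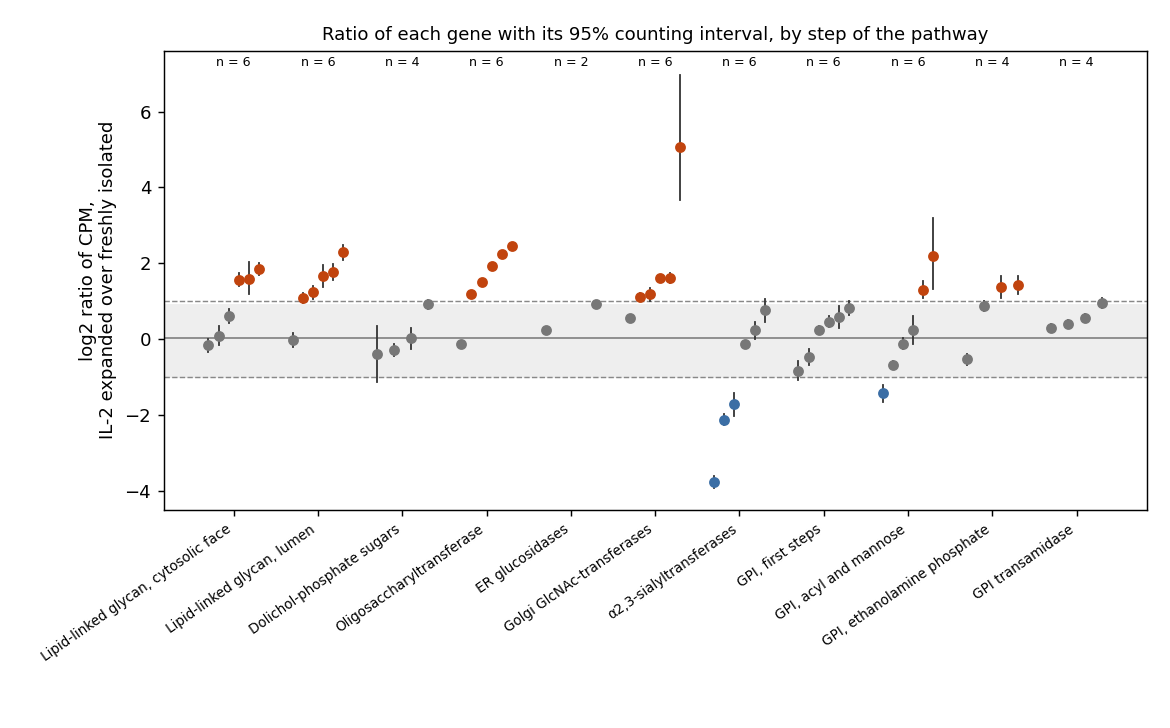
The log2 ratio of CPM (IL-2 expanded over freshly isolated) of each gene, with bars for the 95% counting interval, by pathway step. The dashed lines mark 2-fold, the grey band holds the middle of the distribution of all 11715 genes (25th to 75th percentile, -0.996 to 0.893) and the grey line its median of 0.035. Oligosaccharyltransferase genes other than Dad1 lie above the band, and 3 of the 6 St3gal genes lie below it.

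The oligosaccharyltransferase was the step with the highest summed level per length (966 CPM per kb in expanded and 309 CPM per kb in freshly isolated cells) and the largest fold of the summed level of any step in the set. Its 6 genes summed to 2917 CPM in expanded cells and 906 CPM in freshly isolated cells, 3.22-fold higher [3.17 to 3.27], and 5 of the 6 were at least 2-fold higher (median log2 fold 1.72). Rpn1 (chromosome 6, 88084473 to 88105304, plus strand) encodes ribophorin I, a subunit of the complex. It stood at 630.1 CPM (13245 counts) in expanded cells and 114 CPM (2453 counts) in freshly isolated cells. This was 5.53-fold higher [5.30 to 5.77] and the 798th highest fold of 11715 genes.

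Both catalytic subunits were higher. Stt3b, the catalytic subunit that can act on proteins after translation (chromosome 9, 115242582 to 115310421, minus strand), stood at 666 CPM in expanded and 139 CPM in freshly isolated cells, 4.78-fold higher [4.59 to 4.97]. Stt3a, its paralogue that acts during translocation (chromosome 9, 36732413 to 36767578, minus strand), stood at 564 CPM in expanded and 148 CPM in freshly isolated cells, 3.81-fold higher [3.66 to 3.96]. The 2 intervals do not overlap, so that Stt3b differed more than Stt3a beyond counting error. Per length, the ratio of Stt3b to Stt3a was 0.752 in expanded cells and 0.599 in freshly isolated cells.

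The structural subunits were less alike. Ddost was at 394 CPM in expanded and 138 CPM in freshly isolated cells, 2.85-fold higher [2.73 to 2.97]. Rpn2, ribophorin II, was at 549.7 CPM in expanded and 242 CPM in freshly isolated cells, 2.27-fold higher [2.198 to 2.35]. Dad1, a small subunit of the same complex (chromosome 14, 54235485 to 54253929, minus strand), was the exception, at 114 CPM in expanded and 125 CPM in freshly isolated cells, 1.10-fold lower [1.04 to 1.16]. Levels of different genes can be compared only per length, here CPM divided by the gene length in kb that the authors deposited. On that scale the subunits ran from 30.4 CPM per kb (Dad1) to 211 CPM per kb (Stt3a) in expanded cells, a 6.92-fold span, and from 31.4 (Rpn1) to 89.7 CPM per kb (Rpn2) in freshly isolated cells, a 2.86-fold span. Rpn1 was thus the lowest of the 6 in freshly isolated cells and in place 4 of 6 from the top in expanded cells. Without Dad1 the expanded levels ran from 158 to 211 CPM per kb. The place of Dad1 and the 6.92-fold span rest on its deposited length of 3.73 kb. Whether that length matches the transcript expressed was not tested. Among the 11715 genes, the level of Rpn1 per length was at percentile 97.2 in expanded cells and 81.0 in freshly isolated cells.

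Of 6 other oligosaccharyltransferase subunits, 3 were at least 2-fold higher and none lower (median log2 fold 1.21). Magt1, an oxidoreductase subunit that works with Stt3b, was at 313 CPM in expanded and 79.3 CPM in freshly isolated cells, 3.94-fold higher [3.74 to 4.16]. Its paralogue Tusc3, which can take the same place in the complex, was at 29.2 CPM in expanded and 36.2 CPM in freshly isolated cells. Krtcap2 and Ostc, which belong to the Stt3a form, were 3.04-fold [2.83 to 3.27] and 3.002-fold [2.83 to 3.19] higher. Ost4 was at 59.6 CPM in expanded and 36.9 CPM in freshly isolated cells. Subunits of both forms of the complex were therefore among the higher genes, and Dad1 and Tusc3 were those that were not higher in expanded cells.

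**Figure D3:**
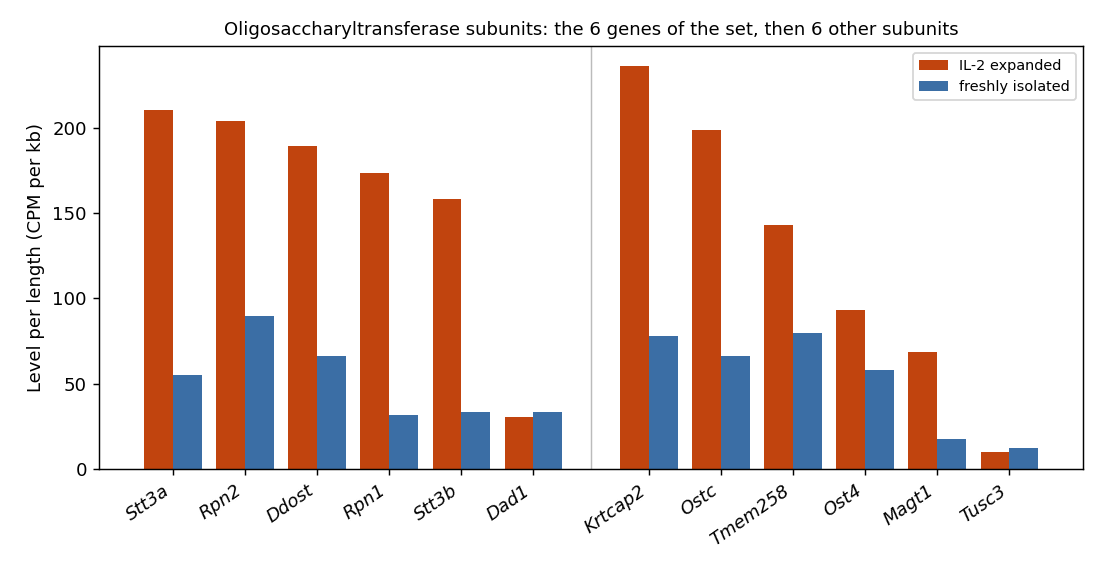
Level per length (CPM per kb) of the 6 oligosaccharyltransferase genes of the set and, right of the line, 6 other subunits, with the IL-2 expanded library left of the freshly isolated library in each pair. Dad1 (30.4 CPM per kb in expanded and 33.4 CPM per kb in freshly isolated cells) and Tusc3 stand at similar heights in both libraries, and the other bars are taller in expanded cells.

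Promoter sequences are shown for the pair of oligosaccharyltransferase genes with the largest differences, Rpn1 and Stt3b, for Dad1, which was not higher, and for Alg12 and Canx, which share a motif. They are from RefSeq (GRCm38.p6), cover the 230 bases before the annotated start and read 5′ to 3′ on the gene's strand. The windows are chr6:88084243-88084472 (plus strand) for Rpn1, chr9:115310469-115310698 (minus strand) for Stt3b, chr14:54253930-54254159 (minus strand) for Dad1, chr15:88819319-88819548 (minus strand) for Alg12 and chr11:50325674-50325903 (minus strand) for Canx. Capitals mark an ER stress response element (ERSE) as defined below.
Rpn1: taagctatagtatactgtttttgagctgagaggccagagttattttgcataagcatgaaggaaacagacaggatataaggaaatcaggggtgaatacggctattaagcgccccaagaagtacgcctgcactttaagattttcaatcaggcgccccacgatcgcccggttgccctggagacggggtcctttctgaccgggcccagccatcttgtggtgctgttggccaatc
Stt3b: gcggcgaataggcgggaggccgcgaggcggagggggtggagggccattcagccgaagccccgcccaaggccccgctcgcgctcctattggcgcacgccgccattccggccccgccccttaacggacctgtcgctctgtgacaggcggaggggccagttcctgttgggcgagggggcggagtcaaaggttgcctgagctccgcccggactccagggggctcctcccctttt
Dad1: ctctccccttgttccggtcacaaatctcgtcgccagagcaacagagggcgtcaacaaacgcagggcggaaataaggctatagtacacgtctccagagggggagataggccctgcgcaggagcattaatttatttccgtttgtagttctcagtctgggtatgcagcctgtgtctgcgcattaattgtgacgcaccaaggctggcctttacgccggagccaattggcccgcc
Alg12: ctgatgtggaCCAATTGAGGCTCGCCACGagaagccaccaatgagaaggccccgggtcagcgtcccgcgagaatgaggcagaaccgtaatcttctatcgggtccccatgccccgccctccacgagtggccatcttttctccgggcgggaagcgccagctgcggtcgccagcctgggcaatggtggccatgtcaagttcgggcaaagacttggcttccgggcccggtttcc
Canx: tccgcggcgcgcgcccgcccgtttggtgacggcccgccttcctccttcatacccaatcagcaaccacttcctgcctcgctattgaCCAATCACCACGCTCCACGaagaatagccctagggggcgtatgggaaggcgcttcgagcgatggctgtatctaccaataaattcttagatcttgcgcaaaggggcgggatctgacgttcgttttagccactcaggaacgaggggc

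The motifs searched, on both strands of the window from 250 bases before to 50 bases after each start, were the ERSE (CCAAT, then 9 bases of any kind, then CCACG), ERSE-II (ATTGG, then 1 base of any kind, then CCACG), the UPRE (TGACGTGG) and the E-box (CACGTG). These are, as background, elements bound by ATF6, XBP1 and basic helix-loop-helix factors, and the last letters of an ERSE can be part of an E-box. RefSeq windows were found for 51 of the 61 genes. The ERSE was in the window of 1 of the 51, Alg12, and in 0.137% of all 27025 genes with a window, and ERSE-II was in none of the 51 and in 0.0444% of all. The UPRE was in 1 of the 51 (Pigp), against 0.714% of all genes, and the E-box in 5 (Alg1, Dpm2, Pigp, Pigr and Pigw), against 8.09%. Of these 6 genes, 5 were compared (Pigr was not), and none of the 5 was at least 2-fold higher or lower in expanded cells. Of 63 genes with a window in the pathway lists outside the set, 8 held a motif, and 6 of the 63 held the E-box. Of these 8, 5 were at least 2-fold higher and none lower, against 22.4% and 25.0% of all genes compared. Whether a motif goes with a higher level was not tested. The 5 were Calr (ERSE and E-box, 4.01-fold), Canx (ERSE, 3.94-fold), Magt1 (E-box, 3.94-fold), Krtcap2 (ERSE-II, 3.04-fold) and Dolk (E-box, 2.92-fold), and the other 3 were Dhdds, Prkcsh and Srd5a3 (each E-box). Alg12 stood at 23.5 CPM in expanded and 23.9 CPM in freshly isolated cells, whereas Canx, which encodes the lectin chaperone calnexin and has an ERSE 145 bases before its start, stood at 1573 CPM in expanded and 399 CPM in freshly isolated cells. No motif of the 4 was in the windows of the 6 oligosaccharyltransferase genes of the set. A match is a description of letters and not of binding.

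Assembly of the lipid-linked oligosaccharide begins on the cytosolic face of the ER. Of its 6 genes, 3 were at least 2-fold higher and none lower (median log2 fold 1.08), and their summed level was 197 CPM in expanded and 98.9 CPM in freshly isolated cells. Dpagt1, which starts the pathway by placing N-acetylglucosamine phosphate on dolichol phosphate (chromosome 9, 44326845 to 44333600), was at 64.4 CPM in expanded and 17.9 CPM in freshly isolated cells, 3.60-fold higher [3.21 to 4.04]. The next sugar is added by a pair of proteins, the membrane anchor Alg14 and the catalytic Alg13, and these gave different folds. Alg14 was at 8.99 CPM in expanded and 2.97 CPM in freshly isolated cells, 3.02-fold higher [2.27 to 4.08]. Alg13 was at 12.035 CPM in expanded and 11.3 CPM in freshly isolated cells, a ratio of 1.07 [0.890 to 1.28] whose log2 fold of 0.09 becomes -0.07 with scaling by total count. Of the mannosyltransferases that follow, Alg2 was at 55.4 CPM in expanded and 18.8 CPM in freshly isolated cells, 2.95-fold higher [2.63 to 3.31]. Alg11 was at 31.3 CPM in expanded and 20.6 CPM in freshly isolated cells, and Alg1, which adds the first mannose, at 24.5 CPM in expanded and 27.4 CPM in freshly isolated cells. The Alg1 interval includes no difference (1.12-fold lower [0.992 to 1.26]). The span of Alg1 overlaps that of Eef2kmt on the other strand (19.1 CPM in expanded and 20.6 CPM in freshly isolated cells), so its value is uncertain.

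In lumenal assembly 5 of 6 genes were at least 2-fold higher (83.3%, median log2 fold 1.43), the same share as for the oligosaccharyltransferase and the Golgi N-acetylglucosaminyltransferases. The glucosyltransferases that finish the oligosaccharide were all higher. Alg8 (chromosome 7, 97371617 to 97392158) was at 59.3 CPM in expanded and 12.2 CPM in freshly isolated cells, 4.87-fold higher [4.26 to 5.59], and Alg6 at 19.2 CPM in expanded and 6.09 CPM in freshly isolated cells, 3.16-fold higher [2.59 to 3.88]. Alg10b, which adds the last glucose, was at 76.5 CPM in expanded and 36.1 CPM in freshly isolated cells, 2.12-fold higher [1.95 to 2.31], and is under 2-fold with scaling by total count (log2 fold 0.92). Of the mannosyltransferases in the lumen, Alg3 was at 37.2 CPM in expanded and 11.0 CPM in freshly isolated cells, 3.39-fold higher [2.93 to 3.94]. The deposited span of Alg3 overlaps that of Ece2 on the other strand (21.5 CPM in expanded and 3.90 CPM in freshly isolated cells), and use of strand in counting was not given, so its value is uncertain. Alg9 was at 49.7 CPM in expanded and 21.2 CPM in freshly isolated cells, 2.34-fold higher [2.10 to 2.62], and Alg12, the mannosyltransferase that acts between its 2 steps, was equal within counting error (1.02-fold lower [0.896 to 1.15]).

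The enzymes that make the dolichol-linked sugars for these lumenal steps were not 2-fold apart. Alg5, which makes dolichol phosphate glucose, was the nearest to it, at 71.4 CPM in expanded and 37.9 CPM in freshly isolated cells, 1.89-fold higher [1.73 to 2.06]. Dolichol phosphate mannose, a donor for both N-glycans and GPI anchors, is made by the catalytic Dpm1 with Dpm2 and Dpm3. Dpm2 was at 29.2 CPM in expanded and 35.6 CPM in freshly isolated cells, 1.22-fold lower [1.10 to 1.36]. Dpm3 was at 10.2 CPM in expanded and 10.1 CPM in freshly isolated cells, and its log2 fold of 0.01 is at or below 0 under every other scaling tried (down to -0.14). Dpm1 had 29 counts in expanded and 39 counts in freshly isolated cells, and its span lies wholly inside that of Gm20716 on the same strand, which had 0 counts in both libraries, so its level is uncertain. Alg5 thus had a higher fold than Dpm2 and Dpm3, with none of them at least 2-fold apart. With the Dpm1 level uncertain, these values do not describe mannose supply as a whole.

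The supply of dolichol and nucleotide sugars from genes outside the set held 8 of 17 genes at least 2-fold higher (47.1%) and none lower, with a median log2 fold of 0.86. Pmm1, a phosphomannomutase, was at 24.8 CPM in expanded and 6.64 CPM in freshly isolated cells, 3.73-fold higher [3.09 to 4.52], and its paralogue Pmm2, the form mutated in the commonest congenital disorder of glycosylation in humans, was at 71.4 CPM in expanded and 74.4 CPM in freshly isolated cells. Dolk, the dolichol kinase, was at 19.8 CPM in expanded and 6.78 CPM in freshly isolated cells, 2.92-fold higher [2.42 to 3.56].

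After transfer, ER glucosidases trim the glycan for entry into the calnexin cycle. Both genes were under 2-fold apart. Mogs, glucosidase I, which removes the outermost glucose, was at 138 CPM in expanded and 72.9 CPM in freshly isolated cells, 1.90-fold higher [1.78 to 2.02]. Ganab, the catalytic subunit of glucosidase II, was at 388 CPM in expanded and 328 CPM in freshly isolated cells, 1.19-fold higher [1.15 to 1.22]. Of 14 measured genes of ER glycan trimming and lectins outside the set, 5 were at least 2-fold higher and none lower (median log2 fold 0.89). The cargo receptor Lman1 was furthest up, at 199 CPM in expanded and 40.5 CPM in freshly isolated cells, and Calr, which encodes calreticulin, followed at 2816 CPM in expanded and 703 CPM in freshly isolated cells. Man1b1, an ER mannosidase, was at 79.6 CPM in expanded and 102 CPM in freshly isolated cells, and Edem3 at 61.9 CPM in expanded and 65.8 CPM in freshly isolated cells. The ER translocon and signal recognition genes, a list chosen for comparison with the ER steps, held 12 of 23 at least 2-fold higher (52.2%) and none lower, with a median log2 fold of 1.06. The share for the 24 genes of the ER steps was 54.2%, with a median of 1.13. The furthest apart in that list were Srp19 (130.1 CPM in expanded and 33.1 CPM in freshly isolated cells) and Ssr3 (828 CPM in expanded and 237 CPM in freshly isolated cells), and the least were Sec62 (189.8 CPM in expanded and 188.8 CPM in freshly isolated cells) and Sec11a (115 CPM in expanded and 96.1 CPM in freshly isolated cells).

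In the Golgi, N-acetylglucosaminyltransferases set the number of branches of a complex N-glycan. All 6 measured genes were higher in expanded cells, against 51.2% of all genes with a log2 fold above 0. Of them, 5 were at least 2-fold higher (median log2 fold 1.39). Mgat3, 1 of these 5, reached the mean of 1 CPM only through the expanded library. With a mean of at least 5 CPM required, the median was 1.17. The summed level of the 6 genes was 606 CPM in expanded and 268 CPM in freshly isolated cells, 2.26-fold higher [2.19 to 2.33]. Mgat1, which opens the way from mannose-rich to complex glycans, was at 125 CPM in expanded and 58.0 CPM in freshly isolated cells, 2.15-fold higher [2.01 to 2.30], and falls just under 2-fold with scaling by total count (log2 fold 0.95). Mgat2, which starts the second branch, was at 216 CPM in expanded and 71.4 CPM in freshly isolated cells, 3.03-fold higher [2.86 to 3.21]. The span of Mgat2 lies inside that of Dnaaf2 on the other strand (16.4 CPM in expanded and 15.3 CPM in freshly isolated cells).

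The enzymes of the further branches were also higher. Mgat5, whose branch carries the repeated lactosamine units that galectins bind and which in mice restrains T cell activation (chromosome 1, 127204986 to 127482972), was at 80.0 CPM (1681 counts) in expanded and 26.3 CPM (566 counts) in freshly isolated cells, 3.04-fold higher [2.76 to 3.35]. Of the paralogous pair that makes the other further branch, Mgat4b was at 40.4 CPM in expanded and 17.9 CPM in freshly isolated cells, 2.26-fold higher [2.002 to 2.56]. Mgat4a was at 138 CPM in expanded and 94.2 CPM in freshly isolated cells, 1.46-fold higher [1.38 to 1.55]. Mgat3, which adds the bisecting N-acetylglucosamine, had 131 counts (6.23 CPM) in expanded cells and 4 counts (0.186 CPM) in freshly isolated cells. Its ratio of 33.5 [12.8 to 125] was the largest among the 56 genes, and its level per length in expanded cells, 1.34 CPM per kb, was the lowest of the 6 measured genes of this group. Per length, Mgat2 was the highest of the group in both libraries, at 82.8 CPM per kb in expanded and 27.3 CPM per kb in freshly isolated cells, and the order of the 6 genes was the same in both.

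Of 19 measured genes of Golgi trimming and other N-glycan capping, 4 were at least 2-fold higher (21.1%) and 3 lower (15.8%). The shares of all genes were 22.4% and 25.0%, and the median log2 fold of the 19 was 0.20. The galactosyltransferase gene B4galt2 had 69 counts (3.282 CPM) in expanded cells and 2 counts in freshly isolated cells, a ratio of 35.3 [9.42 to 298]. Slc35a3, a carrier that brings UDP-N-acetylglucosamine into the Golgi, was at 74.7 CPM in expanded and 33.0 CPM in freshly isolated cells. St6gal1, which caps galactose with sialic acid in another linkage than the St3gal enzymes and is highly expressed in B cells, was furthest down, at 3.23 CPM in expanded and 207 CPM in freshly isolated cells, 64.0-fold lower [50.4 to 82.6]. B and plasma cell markers were lower in the same library (11 of 11 compared), and their part in the St6gal1 value was not tested. B4galt4 was at 0.761 CPM in expanded and 4.04 CPM in freshly isolated cells.

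The St3gal family joins sialic acid to terminal galactose of N-glycans, O-glycans and glycolipids. Its summed level was the furthest down among the steps, at 166 CPM in expanded and 459 CPM in freshly isolated cells, 2.77-fold lower [2.66 to 2.88], and that of the acyl and mannose step of GPI synthesis was 1.30-fold lower [1.24 to 1.36]. Of the St3gal family's 6 genes, 3 were at least 2-fold lower and none higher (median log2 fold -0.92). St3gal1, which caps the core of mucin-type O-glycans and in mice sets the binding of peanut lectin to T cells (chromosome 15, 67102875 to 67176882, minus strand), was at 16.5 CPM (347 counts) in expanded and 224 CPM (4812 counts) in freshly isolated cells. It was 13.5-fold lower [12.1 to 15.1], the 702nd lowest fold of 11715 genes. St3gal6, which acts on lactosamine ends and takes part in selectin ligands (chromosome 16, 58470541 to 58524246), was at 21.2 CPM in expanded and 92.8 CPM in freshly isolated cells, 4.37-fold lower [3.94 to 4.86]. St3gal2, which shares acceptors with St3gal1 and also acts on gangliosides, was at 5.66 CPM in expanded and 18.6 CPM in freshly isolated cells, 3.283-fold lower [2.67 to 4.06].

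The other 3 genes of the family were under 2-fold apart. St3gal4, which acts on N-glycans and selectin ligands, was at 94.1 CPM in expanded and 103 CPM in freshly isolated cells, 1.10-fold lower [1.03 to 1.16]. Its span overlaps that of 4930581F22Rik on the other strand (3.14 CPM in expanded and 27.4 CPM in freshly isolated cells). St3gal3 was at 17.2 CPM in expanded and 14.6 CPM in freshly isolated cells, 1.18-fold higher [1.01 to 1.37], and St3gal5, which makes the precursor of most gangliosides, was at 11.1 CPM in expanded and 6.60 CPM in freshly isolated cells, 1.69-fold higher [1.36 to 2.09]. The composition of the family therefore differed between the libraries. Per length, St3gal4 made up 65.8% of the family's level in expanded and 36.2% in freshly isolated cells, St3gal1 made up 3.99% in expanded and 27.1% in freshly isolated cells, and St3gal6 made up 12.8% in expanded and 28.0% in freshly isolated cells. Of the family's counts, St3gal1 held 9.96% in expanded cells (exact Clopper-Pearson interval 8.98 to 11.0) and 48.7% in freshly isolated cells (47.7 to 49.7). In the order per length, St3gal4 was highest and St3gal6 next in both libraries, with St3gal1 in place 5 in expanded and place 3 in freshly isolated cells. The B and plasma cell markers (9.70 CPM in expanded and 961 CPM in freshly isolated cells) and macrophage markers (90.6 CPM in expanded and 1210.0 CPM in freshly isolated cells) were lower in the same library, and their part in the lower sialyltransferase levels was not tested.

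**Figure D4:**
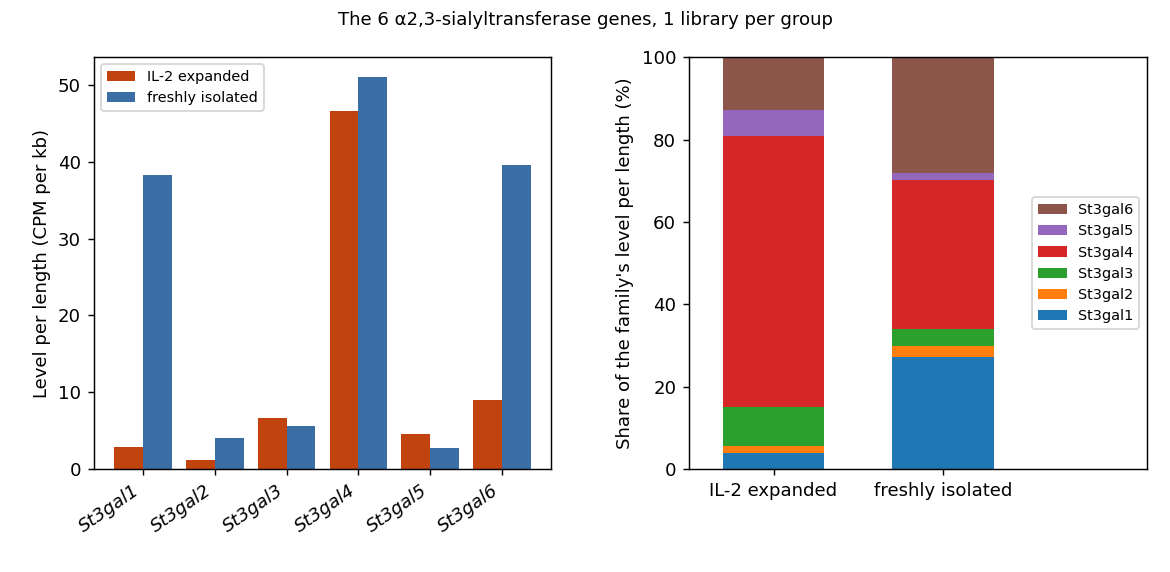
Left, level per length (CPM per kb) of the 6 St3gal genes, with the IL-2 expanded library left of the freshly isolated library. Right, each gene's share of the family's level per length in the 2 libraries, in which St3gal4 makes up 65.8% in expanded and 36.2% in freshly isolated cells.

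Since St3gal1 acts on O-glycans, the genes of the mucin-type O-glycan core were counted beside it. Of 15, 2 were at least 2-fold higher and 3 lower, against 22.4% and 25.0% of all genes (median log2 fold 0.24). Gcnt1, which adds the branch of core O-glycans in competition with St3gal1, was at 158 CPM in expanded and 15.7 CPM in freshly isolated cells, 10.05-fold higher [8.98 to 11.3]. Galnt3, which starts O-glycans, was at 134 CPM in expanded and 7.06 CPM in freshly isolated cells, 19.04-fold higher [16.2 to 22.6]. Its relatives Galnt10 and Galnt11 were at 30.3 and 15.5 CPM in expanded cells, against 167 and 35.4 CPM in freshly isolated cells. The core synthase C1galt1 itself was at 87.6 CPM in expanded and 61.7 CPM in freshly isolated cells.

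Folds of GPI anchor synthesis lay nearer to 1. Its 20 genes summed to 817 CPM in expanded and 696 CPM in freshly isolated cells, 1.17-fold higher [1.15 to 1.20], with 15 of 20 under 2-fold apart (against 52.6% of all genes). None of the 6 measured genes of the first steps was 2-fold apart (median log2 fold 0.34). Piga, the X-linked catalytic subunit of the enzyme that starts the pathway and the gene mutated in the human disease paroxysmal nocturnal haemoglobinuria, was at 48.3 CPM in expanded and 35.1 CPM in freshly isolated cells, 1.38-fold higher [1.25 to 1.51]. Its partners Pigc and Pigh were at 33.5 and 11.6 CPM in expanded cells, against 19.1 and 7.76 CPM in freshly isolated cells, and Pigq was at 76.4 CPM in expanded and 65.2 CPM in freshly isolated cells. Pigp was at 10.04 CPM in expanded and 17.9 CPM in freshly isolated cells, with a span that overlaps Ttc3 on the other strand (72.5 CPM in expanded and 167 CPM in freshly isolated cells), so its value is uncertain. Pigl, the deacetylase of the next step, was at 15.5 CPM in expanded and 21.5 CPM in freshly isolated cells. Of the subunits of the starting enzyme given in this paragraph, Piga, Pigc, Pigh and Pigq were higher in expanded cells and Pigp was lower.

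The acyl and mannose steps lay on both sides. Of 6 genes, 2 were at least 2-fold higher and 1 lower, against 22.4% and 25.0% of all genes. Their median log2 fold of 0.06 becomes -0.10 with scaling by total count. Pigv, which adds the second mannose, was the one GPI gene at least 2-fold lower, at 11.3 CPM in expanded and 30.4 CPM in freshly isolated cells, 2.70-fold lower [2.32 to 3.14]. Pigm, the catalytic enzyme for the first mannose, was at 70.3 CPM in expanded and 113 CPM in freshly isolated cells, 1.61-fold lower [1.505 to 1.71], and its partner Pigx at 40.3 CPM in expanded and 43.8 CPM in freshly isolated cells. Pigb, which adds the third mannose, was at 25.4 CPM in expanded and 10.3 CPM in freshly isolated cells, 2.47-fold higher [2.11 to 2.90]. Pigm and Pigv were thus lower and Pigb higher in expanded cells. The span of Pigb overlaps that of Ccpg1 on the other strand (37.6 CPM in expanded and 144 CPM in freshly isolated cells), so its value is uncertain. Pigz, which adds a side mannose to some anchors, had 58 counts (2.76 CPM) in expanded and 13 counts (0.604 CPM) in freshly isolated cells, 4.57-fold higher [2.47 to 9.09]. Pigw, which acylates the inositol ring, was at 6.09 CPM in expanded and 5.16 CPM in freshly isolated cells. The Pigw value is also uncertain, since its span overlaps Myo19 on the other strand (15.8 CPM in expanded and 10.6 CPM in freshly isolated cells).

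Of the 4 genes that add ethanolamine phosphate, 2 were at least 2-fold higher and none lower, against 22.4% and 25.0% of all genes. Their median log2 fold was 1.11. Pigg was at 17.0 CPM in expanded and 6.55 CPM in freshly isolated cells, 2.59-fold higher [2.13 to 3.17]. Pigf, the partner that stabilises Pigg and Pigo, was at 25.8 CPM in expanded and 9.66 CPM in freshly isolated cells, 2.67-fold higher [2.27 to 3.15]. Its span overlaps that of Rhoq on the other strand, which stood at 357 CPM in expanded and 33.1 CPM in freshly isolated cells, so the Pigf value is uncertain. Pigo, which modifies the third mannose and so provides the link to the protein, was at 30.1 CPM in expanded and 43.6 CPM in freshly isolated cells, 1.45-fold lower [1.31 to 1.60]. Pign was at 70.1 CPM in expanded and 38.4 CPM in freshly isolated cells, 1.83-fold higher [1.67 to 1.99].

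The GPI transamidase, which attaches the finished anchor to proteins, was more uniform. Its 4 genes in the set were all higher in expanded cells, against 51.2% of all genes with a log2 fold above 0. All 4 were under 2-fold apart (median log2 fold 0.48). The catalytic Pigk was at 79.4 CPM in expanded and 53.9 CPM in freshly isolated cells, 1.47-fold higher [1.37 to 1.59]. Pigt and Pigs were at 86.0 and 91.8 CPM in expanded cells, against 70.6 and 69.9 CPM in freshly isolated cells. Pigu was at 65.6 CPM in expanded and 33.8 CPM in freshly isolated cells, 1.94-fold higher [1.77 to 2.13].

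Of 8 other measured genes of GPI synthesis and remodelling, none was at least 2-fold higher and 4 were lower (median log2 fold -0.80). The highest folds belonged to Gpaa1, the remaining transamidase subunit, at 48.1 CPM in expanded and 27.8 CPM in freshly isolated cells, and Pigyl, at 8.18 CPM in expanded and 6.64 CPM in freshly isolated cells. Those at least 2-fold lower were Mppe1, Tmem8, Pgap1 and Pgap3. Pgap2, of the same list, was at 34.8 CPM in expanded and 33.2 CPM in freshly isolated cells. Mppe1, which removes an ethanolamine phosphate before the protein leaves the ER, was at 27.8 CPM in expanded and 125 CPM in freshly isolated cells, 4.51-fold lower [4.13 to 4.94]. Tmem8 was at 8.04 CPM in expanded and 39.95 CPM in freshly isolated cells, 4.97-fold lower [4.21 to 5.90]. Pgap1, which removes the acyl chain from inositol, and Pgap3, which exchanges a fatty acid in the Golgi, were at 7.90 and 10.1 CPM in expanded cells, against 17.7 and 22.4 CPM in freshly isolated cells.

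The transcripts of GPI-anchored proteins also lay on both sides. Of 21 measured, 6 were at least 2-fold higher and 9 lower (median log2 fold -0.42), while their summed level with 4 others of the list was 6764 CPM in expanded and 4141 CPM in freshly isolated cells. Thy1 was at 2278 CPM in expanded and 847 CPM in freshly isolated cells. The members furthest up were Ly6g, with 374 counts in expanded and 0 counts in freshly isolated cells (at least 128-fold higher against a floor of 3 counts), and Ly6a, at 1601 CPM in expanded and 54.7 CPM in freshly isolated cells. Cd24a had 4 counts in expanded and 1091 counts in freshly isolated cells, and Plaur had 7 counts in expanded and 805 counts in freshly isolated cells. Cd24a is also abundant in B cells and red cell precursors, and Plaur in myeloid cells, whose markers were lower in the same library, and their part in these values was not tested. Genes of the Ly6 family are close paralogues, so the division of counts among them is uncertain.

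**Figure D5:**
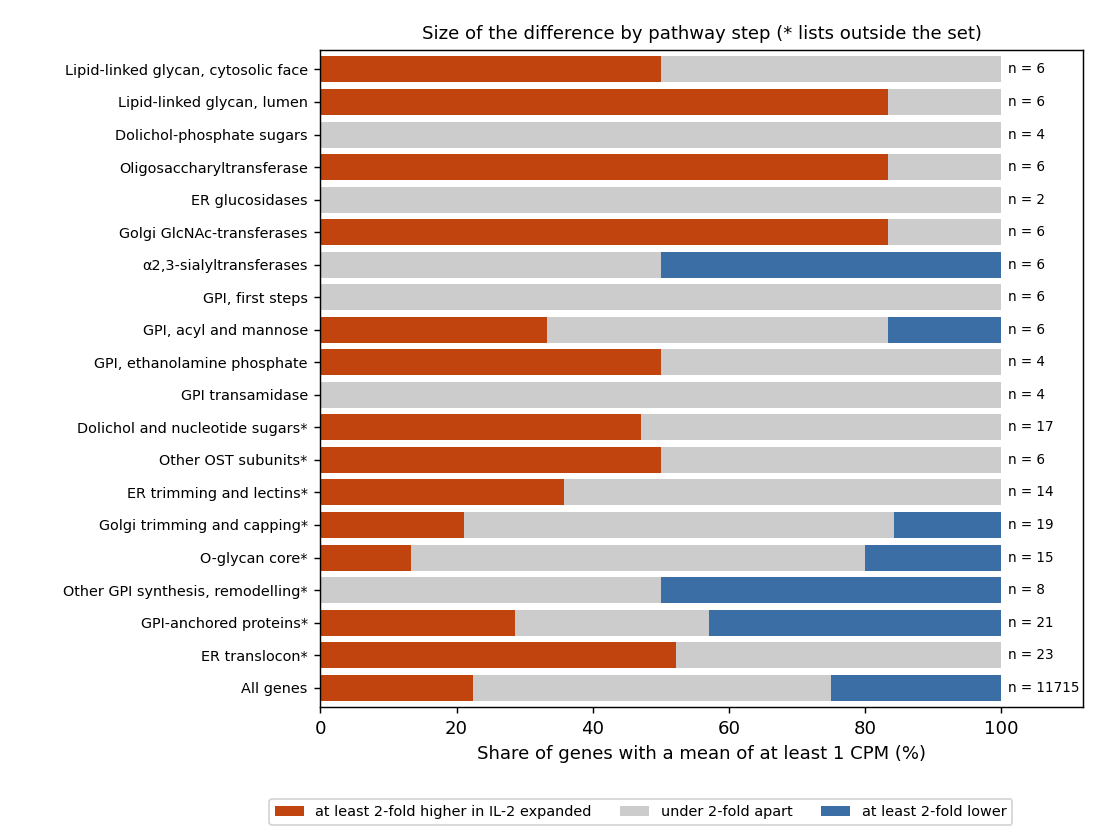
Share (%) of the genes compared that lie 2-fold or more above, under 2-fold apart, or 2-fold or more below in IL-2 expanded against freshly isolated cells, for each pathway step, for lists outside the set (asterisk) and for all 11715 genes. Lumenal assembly, oligosaccharyltransferase and Golgi N-acetylglucosaminyltransferase genes reach 83.3% higher, against 22.4% of all genes, and 3 of the 6 sialyltransferases and 4 of 8 other GPI genes were lower, against 25.0% of all genes.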

How the data were processed

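The values deposited by the authors are raw read counts, as whole numbers for each gene, with gene spans and lengths. The submitters' processing notes name edgeR 3.28.1, the read counter HTSeq 0.6.0, the aligner STAR 2.6.0, bcl2fastq 2.18.0.12 and the build mm10 (GRCm38), without saying how each was set. Use of strand and the annotation are not given in the sources used here. Libraries were scaled here by TMM (edgeR 4.0.16, R 4.3.3), with a factor of 0.947 for the expanded and 1.056 for the freshly isolated library. CPM are counts over the scaled library size. Log2 folds used a prior count of 2, and a plain fold is a ratio of CPM with an exact conditional binomial (Clopper-Pearson) 95% interval. Since there were no molecular identifiers, PCR copies count as reads, and the intervals and the floor of 3 counts express counting error alone. Genes averaging 1 CPM or more were counted at 2-fold.

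All genes that the symbol rule takes are named, and of other lists mainly the 2 furthest up and the 2 furthest down, with C1galt1, Thy1, Cd3e, Canx, Ost4, Pgap1, Pgap2, Pgap3 and the marker, motif-holding and overlapping genes added after their values were seen. A gene that this rule takes is not reported here. The members and lists were chosen with earlier results of these data known. Of the 61 deposited spans, 35 have the same lowest coordinate as in RefSeq GRCm38.p6. On the minus strand this is the far end of the gene and not its start. Coordinates are 1-based on GRCm38. Overlaps leave out spans over 2 Mb. In simulated data for this comparison (11719 genes), 100% of 200 genes changed 4-fold were counted in the right direction, 5 unchanged genes were counted, and 95.4% of intervals held the true ratio. Counts were drawn from the Poisson model that the intervals assume, so this checks the calculation only. Only 200 genes were changed there, whereas 22.4% of real genes were at least 2-fold higher and 25.0% lower, so scaling under such differences was not tested. Alternatives were 4 other scalings (total count, DESeq2 1.42.0 size factors, upper quartile, total count without the 50 most abundant genes), prior counts of 0.5 and 5, no filter or 5 CPM, and a 1.5-fold limit. Added after the data were seen was leaving out 10 genes whose spans overlap another gene with at least 10 counts.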

Additional observations from a re-analysis of the deposited data

How the results depend on the processing

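No paired analysis was possible because each group had 1 library. The number of genes at least 2-fold higher was 20 to 22 of 56 over the other scalings and prior counts, against 19.1% to 22.6% of all genes. Without a filter it was 22 of 61 (against 13.8% of all genes), and at 1.5-fold 29 of 56 (against 33.0%). Without genes overlapping another gene with at least 10 counts it was 18 of 46 (against 22.4%), an alternative chosen after seeing the data. The number lower was 4 of 56 under the other scalings and prior counts and 4 of 46 without overlapping genes, 5 of 61 without a filter, where Pigr enters, and 6 of 56 at 1.5-fold (against 32.9% of all genes). With a filter of 5 CPM, 20 of 53 were higher and 4 lower, against 22.3% and 21.0% of all genes. The median log2 fold of the 56 genes, 0.68, ranged from 0.52 to 0.68 under other scalings and prior counts, and was 0.56 over 61 genes without a filter, 0.60 over 53 at 5 CPM and 0.78 over the 46 without overlaps. By total count, the step medians were 1.56 for the oligosaccharyltransferase, 0.43 for the glucosidases, 1.23 for the N-acetylglucosaminyltransferases, 0.19 for the first GPI steps and 0.32 for the transamidase, and by upper quartile 1.65 and 0.51 for the oligosaccharyltransferase and glucosidases. Without the 50 most abundant genes these were 1.64 and 0.51. These shifts follow from the scaling itself, which moves all genes alike. The N-acetylglucosaminyltransferase median was 0.83 without a filter, since 4 genes at 0 enter, and 1.17 at 5 CPM, since Mgat3 leaves. Of 336 values of the 56 genes under other scalings and prior counts, 296 lay inside the gene's counting interval, 0 of those at least 2-fold apart changed sign, and Alg10b and Mgat1 fell under 2-fold by total count. The depth limits Mgat3, Pigz and Dpm1, with 4, 13 and 29 counts in their lower library.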
